A study of Mus musculus with 37 samples.

Results

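The comparison described here is that of immortalized mouse cardiac fibroblasts (CFs) kept for 48 h in myocyte conditioned medium (MCndM) made with ENPP1 and ATP together against CFs kept for 48 h in MCndM made with vehicle. It was taken by the labels of the CF experiment, as the ENPP1+ATP and Vehicle libraries of the 48 h time point, 2 libraries each, or 4 of the 20 CF libraries and of the 37 samples in all. ENPP1 is an ectoenzyme that splits extracellular ATP into AMP and pyrophosphate. Neonatal rat ventricular myocytes (NRVMs) were exposed to vehicle, or to ENPP1 protein with ATP, and their medium was then moved to CFs in a separate plate. The CFs are labelled wild type C57BL/6, and were plated sparsely and held without serum for a day before the medium change, in both groups alike. The remaining 16 CF libraries (MCndM made with ENPP1, ATP or AMP alone, and every medium at 24 h) were used only to estimate the spread between libraries. The study immortalized CFs with the SV40 antigen, which is known to bind the p53 and RB proteins, and which line gave these libraries is not given in the sources used here. The transferred medium could also carry the added protein, the added nucleotide or their products, and the comparison cannot tell these apart from what the myocytes secreted.

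Several of the programs described below have well known regulators. The protein p53 is held low by the ubiquitin ligase Mdm2, and when it is stabilized it turns on inhibitors of the cell cycle, its own negative regulators and proteins that permeabilize mitochondria. Sterol synthesis is switched on by SREBP transcription factors, which stay in the membrane of the endoplasmic reticulum while cholesterol is plentiful. The factor ATF4 is translated when amino acids are short or proteins misfold, and it turns on genes for the synthesis, import and charging of amino acids. These statements are background and were not measured here.

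The ENPP1+ATP libraries had 44625482 and 38478640 counts and the vehicle libraries 53233534 and 47463759, within the 32184799 to 115824659 counts of all CF libraries. Fewer genes had a count with ENPP1+ATP (20381 and 19775) than with vehicle (23004 and 22697), and the share of counts on mitochondrially encoded transcripts was higher (5.30% and 5.37% against 2.25% and 2.15%). The 4 libraries fell on a first principal component with 66.0% of the variance that separated the media, and a second with 28.3% that separated the ENPP1+ATP libraries from each other. The log2 difference between replicates had an SD of 0.78 with ENPP1+ATP and 0.35 with vehicle, and in genes of over 6 on the mean log2 CPM scale, where CPM is the count scaled by the library total after TMM adjustment for composition, these SDs were 0.103 and 0.0694. Changes of weakly expressed genes therefore have wide errors, mainly from the ENPP1+ATP libraries. The labels number the replicates and do not say that they came from separate cultures, so p-values measure the spread between these libraries, which may be technical. In bulk RNA, fewer cells of a kind and less RNA per cell cannot be told apart. All levels below are relative to the library, not to the cell.

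Of 30892 genes in the table, 17879 had enough counts to be tested. By edgeR's quasi-likelihood test with Benjamini-Hochberg adjustment over all genes tested, 3719 genes (20.8%) were higher and 4357 (24.4%) lower with ENPP1+ATP MCndM, together 45.2%. A change of at least 2-fold in addition was seen in 945 higher genes (5.29%) and 991 lower genes (5.54%). The median log2 fold change over all genes tested was -0.03. These shares are the background against which the counts in gene lists are to be read. Where the shares of a list lie near them, its counts are not a trait of that list. The share called in either direction also rose with the level of expression, from 17.2% of genes under 0 on the mean log2 CPM scale to 59.0% of those between 4 and 6 and 67.0% of those over 6. The lists were written by pathway or role, with earlier results of these data known. Some genes stand in more than 1 of them, and no list was tested as a set. The median log2 fold change of genes expressed at 2 or more on the mean log2 CPM scale lay between -0.04 and -0.01 across 4 bins of transcript length and between -0.05 and 0.01 across 4 bins of GC content.

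**Figure D1:**
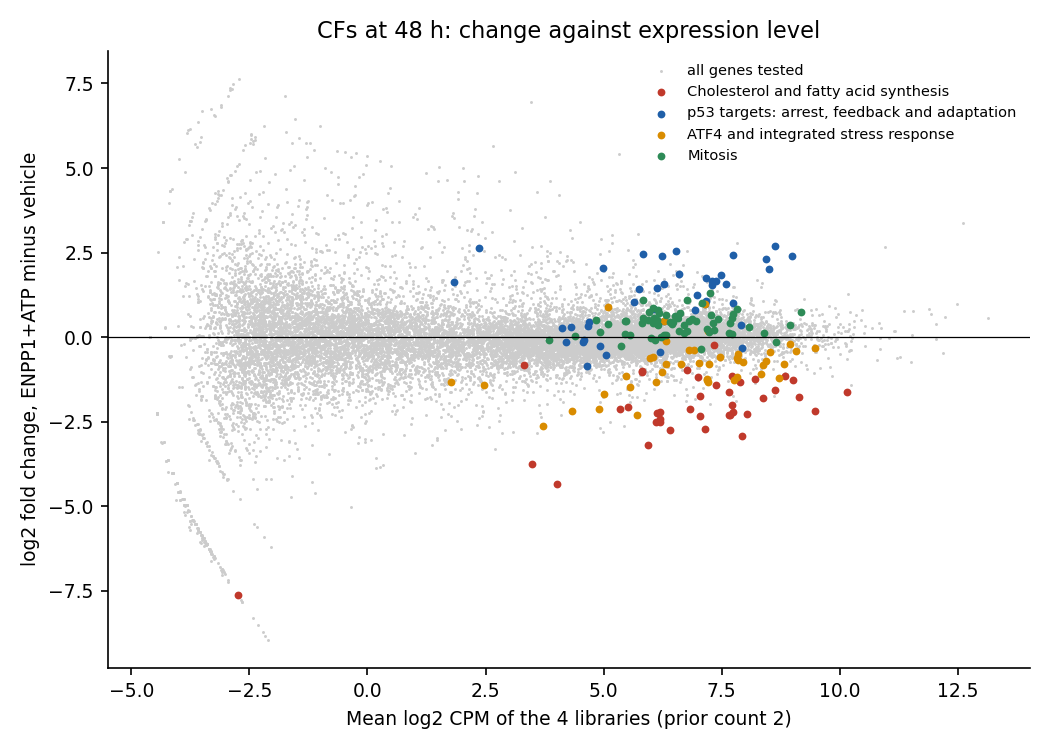
Each point is a gene, with the mean log2 CPM of the 4 libraries on the horizontal axis and the log2 fold change of ENPP1+ATP minus vehicle on the vertical axis, and members of 4 gene lists are coloured. Lipid synthesis genes lie below 0, p53 targets and mitosis genes mostly above 0, the latter between -0.36 and 1.30, while the spread of all genes widens to the left, where counts are low.

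Among genes expressed at 2 or more on the mean log2 CPM scale, with groups that did not overlap and an assigned gene name, the largest rise and the largest fall were both of lipid genes. Across all genes tested the groups did not overlap in 69.8%. The 15 largest rises were mostly of genes at low levels with vehicle. Angptl4, a secreted inhibitor of lipoprotein lipase, was at 124 and 116 CPM with ENPP1+ATP and 1.01 and 0.936 CPM with vehicle, a log2 fold change of 6.94 ± 0.14 (SE, n = 2 libraries a group, adjusted p = 2.59e-21). Robo3, a receptor of axon guidance, was at 38.5 and 49.5 CPM against 0.773 and 0.999 CPM (5.64 ± 0.21). The carboxylesterases Ces2e (241 and 288 CPM against 4.92 and 7.55 CPM, 5.42 ± 0.27) and Ces2f (4.88 ± 0.25) rose as well, and both ENPP1+ATP libraries lay far above both vehicle libraries. The creatine kinase Ckmt1 (4.99 ± 0.29), the annexin Anxa8 (4.76 ± 0.25), the TNF receptor family member Tnfrsf18 (4.61 ± 0.22) and the membrane protease St14 (4.60 ± 0.22) followed. So did Cd68, a lysosomal glycoprotein and macrophage marker (4.30 ± 0.17), Svop (4.27 ± 0.29), the RNA-binding protein gene Celf5 (4.22 ± 0.17), the channel subunits Kcnj15 (3.79 ± 0.17) and Scn3b (3.75 ± 0.17), Ly6c1 (3.58 ± 0.24) and the costimulatory ligand Cd80 (3.55 ± 0.16).

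At the other end, 6 of the 15 largest falls were of enzymes of sterol and fatty acid synthesis. Tm7sf2, a sterol reductase, was at 3.17 and 4.06 CPM with ENPP1+ATP and 70.7 and 73.7 CPM with vehicle (log2 fold change -4.33 ± 0.11, adjusted p = 6.72e-20). Fdps, Acss2, Hmgcs1, Mvk and Lss are described with their pathway below. Lipg, an endothelial type lipase, fell by 2.84 ± 0.16. Matrix genes among the largest falls were Aspn, a small proteoglycan (1.61 and 2.60 CPM against 25.2 and 15.96 CPM, -3.31 ± 0.41), and Podnl1 (-2.83 ± 0.13). Id3, an inhibitor of basic helix-loop-helix factors and a target of BMP signals, was at 11.5 and 12.3 CPM against 85.6 and 82.3 CPM (-2.82 ± 0.11). The remaining falls of this group were of Rassf2 (-2.79 ± 0.14), Lgi2 (-2.70 ± 0.13), the amine oxidase Aoc3 (-2.66 ± 0.23), the linker histone Hist1h1c (-2.62 ± 0.13) and the proline synthesis enzyme Pycr1 (-2.61 ± 0.13).

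**Figure D2:**
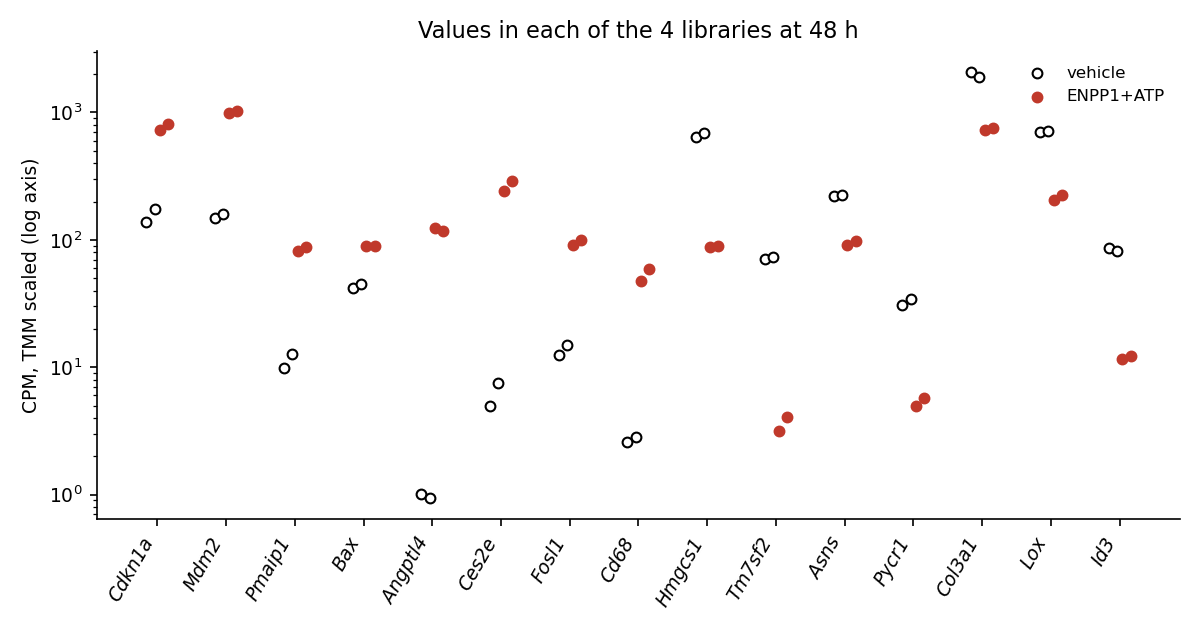
CPM of 15 genes in each library on a log axis, with open circles for the 2 vehicle libraries and filled circles for the 2 ENPP1+ATP libraries. The genes range from Angptl4 near 1 CPM with vehicle and over 100 CPM with ENPP1+ATP to Tm7sf2 near 70 and 4 CPM.

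Targets of p53 that arrest the cell cycle or restrain p53 itself were higher in CFs treated with ENPP1+ATP MCndM. Of the 42 listed genes of arrest, feedback and adaptation 34 rose (81%, against 20.8% of all genes tested), 4 fell and 4 were not called, and 25 rose at least 2-fold. The median log2 fold change was 1.33. Cdkn1a, the inhibitor p21 of cyclin-dependent kinases, was at 731 and 816 CPM with ENPP1+ATP and 138 and 176 CPM with vehicle (2.30 ± 0.14, adjusted p = 6.97e-08). Mdm2 was at 982 and 1025 CPM against 149 and 159.6 CPM (2.70 ± 0.07, adjusted p = 8.85e-19), and Ccng1, a cyclin that recruits a phosphatase to Mdm2, was at 1154 and 1202 CPM against 206 and 238 CPM (2.41 ± 0.074). Rprm, a mediator of arrest in G2, rose from few counts (2.64 ± 0.19), and Psrc1, a spindle protein (2.55 ± 0.13), and the D cyclin Ccnd1 (2.46 ± 0.083) rose with them. Sesn2 (0.98 ± 0.065) and Ddit4 (0.47 ± 0.064), inhibitors of mTORC1, and the adenylate kinase Ak1 (1.65 ± 0.064) rose. The gene of p53 itself, Trp53, was at 275 and 274 CPM against 213 and 211 CPM (0.37 ± 0.042). The 4 members that fell were Gadd45a (-0.85 ± 0.075), Sesn1 (-0.54 ± 0.11), Cd82 (-0.45 ± 0.052) and Rrm2b (-0.25 ± 0.099), so that the paralogs Sesn1 and Sesn2 moved apart. The call of Rrm2b was lost without either vehicle library or without ENPP1+ATP replicate 2 (-0.31, -0.20 and -0.12), and also with DESeq2, RLE scaling, the 4 libraries alone or the 48 h libraries alone (-0.22 to -0.24).

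The RefSeq sequence before annotated starts (GRCm38.p6) was searched for the core of the p53 response element, CATG and again CATG after 6 bases, in the 250 bases upstream on both strands. Of the 35 arrest and feedback genes with such a start 1 held it, Cdkn1a, against 0.49% of all 32851 starts and 0.287% of the 11493 tested genes with a start, and none of 21 death effector genes did. It lay 35 bases before a start of Cdkn1a on the + strand and is shown because this gene is the p53 target with a well described element. The window is chr17:29090879-29090978, written 5′ to 3′ with the paired cores and the bases between them in capitals.
Cdkn1a: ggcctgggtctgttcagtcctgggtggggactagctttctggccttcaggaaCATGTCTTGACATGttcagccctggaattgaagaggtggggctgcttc
The match describes these letters in the window, and the lack of a match in the other genes says only that the letters are not in the bases searched.

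Genes that carry out apoptosis were more mixed. Of the 29 death effectors and death receptors listed 27 were tested, of which 16 rose (59.3%) and 5 fell, with a median of 0.27 and 8 rises of at least 2-fold. Pmaip1, which encodes the BH3-only protein NOXA, was at 81.5 and 87.6 CPM against 9.78 and 12.7 CPM (2.92 ± 0.14, adjusted p = 3.72e-11). Perp, a p53 target of desmosomes, rose from 0.258 and 0.312 CPM to 4.64 and 7.60 CPM (4.41 ± 0.36). Pidd1, which nucleates a caspase-2 platform (2.16 ± 0.087), the receptor gene Eda2r (1.94 ± 0.10) and the nuclease gene Aen (1.56 ± 0.064) rose, and so did the death receptor Fas (1.10 ± 0.083). Bax, whose protein forms pores in the outer mitochondrial membrane, was at 89.3 and 89.8 CPM against 42.2 and 45.2 CPM (1.03 ± 0.067, adjusted p = 3.11e-12). Bbc3, which encodes PUMA, rose less (0.38 ± 0.096), and its call was lost without vehicle replicate 1 (0.21, adjusted p = 0.119). The members that fell included the initiator caspases Casp9 (-0.76 ± 0.072) and Casp2 (-0.33 ± 0.067), Diablo (-0.37 ± 0.075), which antagonizes inhibitors of apoptosis, and Trp63, which was at 0.138 and 0.0541 CPM against 0.571 and 0.603 CPM and is named after its values were seen.

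Among 15 tested members of the BCL2 family that are not core p53 targets (19 listed) 3 rose (20%) and 6 fell (40%). The rises were of Bcl2l1, which encodes the survival protein BCL-XL (170.0 and 165 CPM against 57.1 and 59.2 CPM, 1.53 ± 0.052), of the survival gene Mcl1 (0.47 ± 0.044) and of the pore former Bak1 (157 and 169.6 CPM against 129 and 144 CPM, 0.26 ± 0.062, adjusted p = 0.00136), the last of which was not called without vehicle replicate 1 (0.18, adjusted p = 0.0601). Bcl2 was at 13.8 and 17.5 CPM against 17.6 and 17.3 CPM, so that the groups overlapped (-0.16 ± 0.10, adjusted p = 0.224). The BH3-only gene Bmf (-1.29 ± 0.13) and, more weakly, Bcl2l2 (-0.43 ± 0.067) and Bad (-0.36 ± 0.065) fell, and so did Bnip3 (-0.36 ± 0.14), whose call was lost without vehicle replicate 2 (-0.23, adjusted p = 0.323) or either ENPP1+ATP library (-0.34 and -0.37). Bik and Hrk, which complete the falls, had fewer than 1 CPM in every library and are named after their values were seen.

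**Figure D3:**
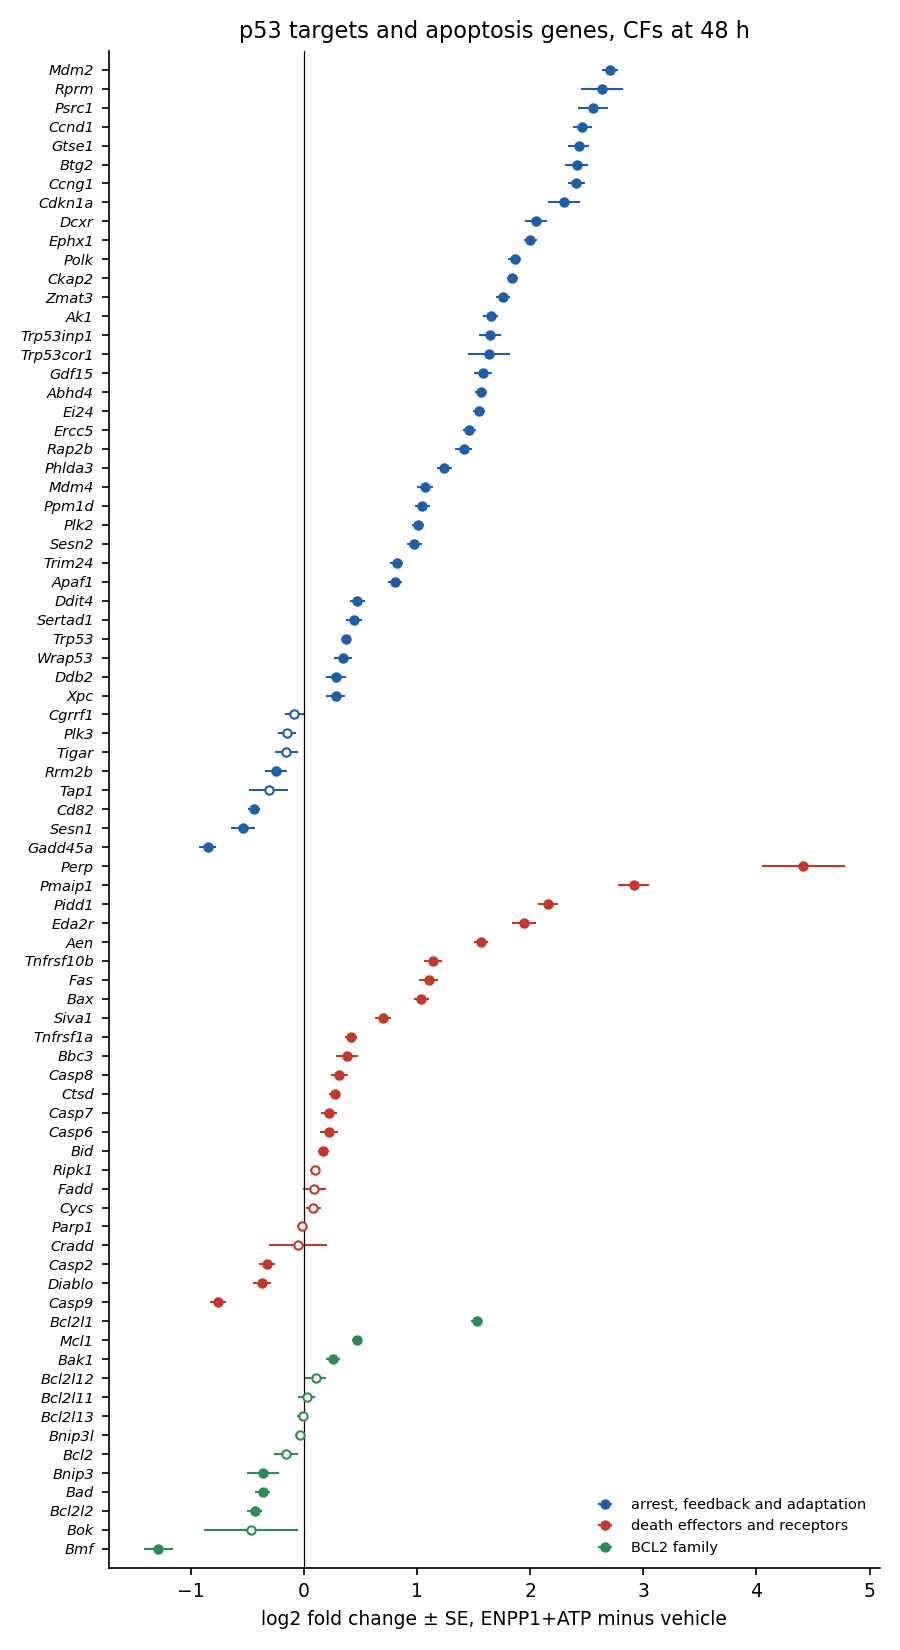
The log2 fold change of each gene with its SE (bars), filled where the adjusted p was below 0.05, for p53 targets of arrest and feedback, death effectors and the BCL2 family. Trp63, Trp73, Bik and Hrk, which had fewer than 1 CPM in every library, are among those left out, and the arrest genes reach from 2.70 for Mdm2 to -0.85 for Gadd45a.

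Lipid synthesis was lower as a block. Of the 40 listed genes of cholesterol and fatty acid synthesis 39 fell (97.5%, against 24.4% of all genes tested), 37 of them at least 2-fold, none rose, and the median log2 fold change was -2.08. The summed CPM of the list was 4552 and 4523 with ENPP1+ATP and 15422 and 15553 with vehicle. The pathway opens with Hmgcs1, which makes HMG-CoA and was at 87.6 and 89.2 CPM against 640.2 and 694 CPM (-2.92 ± 0.065, adjusted p = 1.29e-20). Mvk, mevalonate kinase, was at 32.2 and 33.7 CPM against 214 and 227 CPM (-2.74 ± 0.057), and Fdps, which makes farnesyl pyrophosphate, at 3.26 and 2.81 CPM against 40.5 and 40.9 CPM (-3.74 ± 0.10). The squalene steps fell as well, with Sqle at 101 and 97.3 CPM against 458 and 469 CPM (-2.23 ± 0.06) and Lss, which closes the ring to lanosterol, at 56.0 and 53.9 CPM against 364 and 360.0 CPM (-2.72 ± 0.065). The 2 groups did not overlap in any of these enzymes, as in 69.8% of all genes tested.

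The genes of fatty acid synthesis fell as well. Acss2, which makes acetyl-CoA from acetate, was at 23.3 and 17.2 CPM against 186 and 185 CPM (-3.19 ± 0.12). Fasn, fatty acid synthase, was at 660.3 and 632 CPM against 2015 and 1969.6 CPM (-1.62 ± 0.066), the desaturase Scd1 at 231 and 233 CPM against 699.7 and 669 CPM (-1.56 ± 0.055), and malic enzyme Me1 at 84.5 and 85.4 CPM against 196 and 186 CPM (-1.17 ± 0.07). The listed gene that was not called was the cholesterol exporter Abca1, at 143 and 155 CPM against 174 and 177 CPM (-0.24 ± 0.11, adjusted p = 0.0897), which is named after its values were seen.

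**Figure D4:**
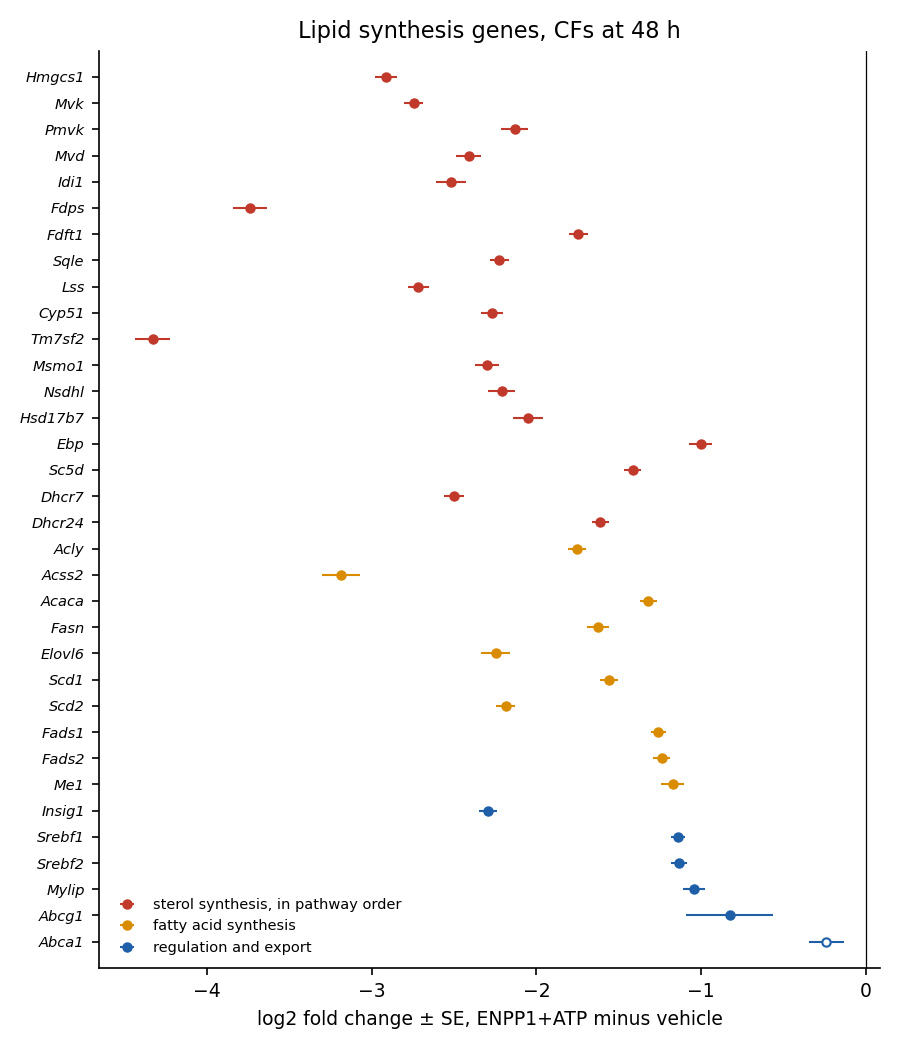
The log2 fold change with its SE of 34 lipid synthesis genes, sterol enzymes in the order of the pathway, then fatty acid synthesis, then regulation and export, with filled points where the adjusted p was below 0.05. Every point lies below 0, from -4.33 for Tm7sf2 to -0.24 for Abca1, the only open point.

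The sterol response element was searched as TCACNCCAC on both strands. Of 28 genes of the list with a RefSeq start 1 held it within 250 bases upstream, Hmgcs1, against 1.05% of all starts and 1.32% of tested genes. It is shown as the element of the gene with which the pathway opens, in the window chr13:119690168-119690267 of the + strand (GRCm38.p6), 129 bases before the start, with the match in capitals.
Hmgcs1: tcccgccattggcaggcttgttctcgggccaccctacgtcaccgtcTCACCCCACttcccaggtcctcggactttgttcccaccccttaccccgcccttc
The share of the list with the letters, 3.57%, comes from a single gene.

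Genes of the integrated stress response were lower too. Of 44 tested genes of the ATF4 list (45 listed) 38 fell (86.4%), 18 of them at least 2-fold, and 4 rose, with a median of -0.78. Atf4 itself was at 282 and 271 CPM against 630.4 and 645 CPM (-1.21 ± 0.066, adjusted p = 3.24e-13). The falls included enzymes of amino acid synthesis, namely Pycr1 for proline (4.96 and 5.71 CPM against 30.7 and 34.3 CPM, -2.61 ± 0.13) and Asns for asparagine (91.3 and 98.2 CPM against 221 and 224 CPM, -1.23 ± 0.059), and Cth of the transsulfuration pathway (-2.17 ± 0.11). Slc7a11, the cystine importer, was at 14.2 and 14.4 CPM against 61.3 and 62.7 CPM (-2.12 ± 0.14), and Trib3, a pseudokinase that feeds back on ATF4, at 21.9 and 25.3 CPM against 114 and 118 CPM (-2.30 ± 0.1). The members that rose were Atf3 (46.5 and 46.4 CPM against 22.8 and 27.3 CPM, 0.89 ± 0.10), Ddit3, which encodes CHOP (0.18 ± 0.061) and was not called without vehicle replicate 1 (0.13, adjusted p = 0.199) or ENPP1+ATP replicate 2 (0.13) or with total count scaling (0.11, adjusted p = 0.125), and Sesn2 and Ddit4, which also stand in the p53 list above.

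The composite element to which ATF4 and C/EBP factors bind was searched as TGATGNAA on both strands. Of the 35 ATF4 list genes with a RefSeq start 11 (31.4%) held it in the 250 bases upstream, against 3.45% of all starts and 2.42% of the 11493 tested genes with a start. Of these 11 genes Atf3 rose and the other 10 fell. The windows of 3 genes that fell and of Atf3, which rose, are printed to show the letters before genes of both directions, all on the - strand of GRCm38.p6 and written 5′ to 3′ with the matches in capitals. They are chr11:120643798-120643897 for Pycr1, chr3:50443626-50443725 for Slc7a11, which holds the element on both strands, chr6:7693210-7693309 for Asns and chr1:191183390-191183489 for Atf3.
Pycr1: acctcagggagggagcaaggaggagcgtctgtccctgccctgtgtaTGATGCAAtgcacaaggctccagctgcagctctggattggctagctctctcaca
Slc7a11: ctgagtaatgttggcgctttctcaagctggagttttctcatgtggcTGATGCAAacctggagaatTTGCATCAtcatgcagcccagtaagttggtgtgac
Asns: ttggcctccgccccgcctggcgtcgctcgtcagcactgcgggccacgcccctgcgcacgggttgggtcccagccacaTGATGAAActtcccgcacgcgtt
Atf3: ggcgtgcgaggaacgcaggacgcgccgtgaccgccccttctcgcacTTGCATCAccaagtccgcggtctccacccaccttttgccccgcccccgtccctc
The matches lay 96 bases before the start in Pycr1, 59 and 40 in Slc7a11, 16 in Asns and 103 in Atf3.

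Genes of fatty acid breakdown and PPAR targets moved in both directions. Of 45 tested members (49 listed) 15 rose (33.3%) and 17 fell (37.8%), and the median was 0.06. Besides Angptl4, the rises included Cpt1a, which brings fatty acids into mitochondria (348 and 373 CPM against 129.8 and 129.6 CPM, 1.48 ± 0.049), Pdk4, which blocks pyruvate oxidation (60.8 and 67.0 CPM against 18.2 and 18.7 CPM, 1.79 ± 0.082), the lipid droplet protein gene Plin2 (1.73 ± 0.056) and Vnn1 (1.80 ± 0.26). The falls included Acsl3, which activates fatty acids (58.2 and 53.4 CPM against 210.3 and 202 CPM, -1.88 ± 0.07), the binding protein gene Fabp5 (-1.58 ± 0.14) and Lpl (59.9 and 69.2 CPM against 148 and 158 CPM, -1.25 ± 0.073), the lipase that Angptl4 inhibits. Among 16 tested carboxylesterases and other enzymes of drug metabolism 6 rose (37.5%) and 3 fell (18.8%). Ces2g rose with Ces2e and Ces2f (233 and 279 CPM against 82.1 and 83.6 CPM, 1.63 ± 0.07), Aldh3a1 rose (1.40 ± 0.21), and Aldh1l2, the mitochondrial folate enzyme, fell from 460.0 and 439 CPM to 104 and 102 CPM (-2.13 ± 0.11). The carboxylesterases are related genes, and how the counting treated any reads shared between them is not given in the sources used here.

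Genes of mitosis were higher, by small steps. Of 64 listed genes 49 rose (76.6%) and 3 fell, with a median of 0.42, and 4 rose at least 2-fold. Cenpe, a kinetochore motor, was at 243 and 234 CPM against 93.2 and 99.8 CPM (1.30 ± 0.053, adjusted p = 4.42e-16), Ccnf at 80.2 and 87.8 CPM against 37.2 and 41.1 CPM (1.10 ± 0.072) and Cdc20, an activator of the anaphase-promoting complex, at 159.9 and 156 CPM against 70.2 and 78.5 CPM (1.09 ± 0.057). The proliferation marker Mki67 (0.75 ± 0.068), the mitotic kinase Plk1 (0.62 ± 0.054), Ube2c (1.02 ± 0.064), cyclin B1 Ccnb1 (0.52 ± 0.059), Top2a (0.35 ± 0.046) and, barely, Cdk1 (0.16 ± 0.049) rose. The call of Cdk1 was lost without either vehicle library (both 0.16) and with total count scaling (0.091, adjusted p = 0.12). The falls were led by Lmnb1 (-0.36 ± 0.049), which encodes a lamin of the nuclear envelope. These rises of mitosis genes stood beside the rise of Cdkn1a in the same libraries.

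Genes of DNA replication did not move as a block. Of 56 listed genes 19 rose (33.9%) and 13 fell (23.2%), none of them 2-fold, and the median was 0.03. Pcna, the sliding clamp, was at 474 and 485 CPM against 471 and 467 CPM (0.03 ± 0.044, adjusted p = 0.597), and of the helicase subunits Mcm2 was at 455 and 470.0 CPM against 477 and 466 CPM (-0.03 ± 0.042) and Mcm5 at 271 and 289.8 CPM against 281 and 275 CPM (0.01 ± 0.046), with overlapping groups and a sign that changed with the scaling in Mcm5. Clspn (0.59 ± 0.053) was among the rises and Pold2 (-0.77 ± 0.057) and Ung (-0.71 ± 0.073) were among the falls. Of 63 genes of DNA damage signalling and repair 26 rose and 10 fell, none 2-fold, with Rad50 (0.70 ± 0.044), Msh6 (0.67 ± 0.047), Chek2 (0.64 ± 0.056) and Brca1 (0.46 ± 0.053) among the rises, while the kinases Atr (-0.13 ± 0.069) and Chek1 (-0.09 ± 0.072) were not called.

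Among D cyclins, cell cycle inhibitors and their partners 11 of 28 rose (39.3%) and 9 fell (32.1%). Beside the rise of Cdkn1a, the inhibitors Cdkn1b (90.5 and 81.9 CPM against 152 and 157 CPM, -0.84 ± 0.061), Cdkn2a (-0.72 ± 0.061), Cdkn2b (-0.75 ± 0.084) and Cdkn2c (-0.60 ± 0.065) fell, the RB family genes Rb1 (0.81 ± 0.075) and Rbl2 (0.47 ± 0.059) rose, and E2f1 was not called (0.05 ± 0.062). Of 56 tested replication-dependent histone genes (68 listed) 4 rose (7.14%) and 15 fell (26.8%). Hist1h1c and Hist1h2bc (-1.66 ± 0.16), which are known to make polyadenylated transcripts as well, and Hist2h3c2 (-3.17 ± 0.26) fell, and Hist1h1e rose (1.65 ± 0.31). Histone genes can be closely similar, and how the counting treated reads shared between them is not given in the sources used here.

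The same RefSeq windows were searched on both strands for elements known from cell cycle genes, over all members whatever their change. The CHR element TTTGAA stood within 250 bases upstream in 37.3% of 51 mitosis genes and 14.9% of 47 replication genes with a RefSeq start, against 16% of all starts and 12.8% of tested genes. The E2F forms TTTCGCG and TTTGGCG each stood in 12.8% of the replication genes and in 3.92% and 7.84% of the mitosis genes, against 0.703% and 1.26% of all starts and 1.53% and 2.33% of tested genes. The forms can overlap where they face each other. The CCAAT box stood in 72.5% of mitosis genes and 59.6% of replication genes, against 33.8% of all starts and 40.0% of tested genes.

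Nucleotide metabolism showed changes in both directions. Of 33 genes of PRPP, purine synthesis and salvage 10 rose (30.3%) and 9 fell (27.3%), against 20.8% and 24.4% of all genes tested. The salvage enzymes Aprt, which joins adenine to PRPP (126 and 132 CPM against 64.0 and 71.7 CPM, 0.92 ± 0.06, adjusted p = 4.15e-12), and Hprt (89.4 and 86.6 CPM against 54.9 and 60.2 CPM, 0.61 ± 0.069) rose, as did adenosine deaminase Ada (0.94 ± 0.07) and the ribonucleotide reductase subunit Rrm2 (235 and 247 CPM against 98.8 and 107 CPM, 1.23 ± 0.064). The falls included Pnp (-0.55 ± 0.073), Pfas (-0.47 ± 0.064), Samhd1 (-0.44 ± 0.055) and Adss (-0.27 ± 0.064), and adenosine kinase Adk was not called (-0.09 ± 0.059). Of 27 tested pyrimidine genes (29 listed) 5 rose (18.5%) and 12 fell (44.4%), 2 and 1 of them by at least 2-fold. Dpyd was at 4.29 and 8.55 CPM against 1.91 and 3.02 CPM (1.38 ± 0.25). Cad, which catalyses the opening steps of the synthesis, was at 223 and 258 CPM against 164 and 167 CPM (0.54 ± 0.061) and Umps, which uses PRPP, rose slightly (0.20 ± 0.048). Dhodh, the enzyme between them in the pathway, fell (-0.39 ± 0.13), and its call was lost without ENPP1+ATP replicate 1 (-0.23) or vehicle replicate 2 (-0.35). Of the genes that supply thymidylate, Tk1 (-0.40 ± 0.058) and Dut (-0.43 ± 0.052) fell, and so did the mitochondrial kinase Cmpk2 (-0.72 ± 0.12), which is also induced by interferon.

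Of 29 tested ectonucleotidases, nucleoside transporters and purinergic receptors (40 listed) 6 rose (20.7%) and 5 fell (17.2%), against 20.8% and 24.4% of all genes tested. P2rx7, an ATP-gated channel, was at 67.7 and 74.0 CPM against 17.9 and 19.9 CPM (1.91 ± 0.10, adjusted p = 5.96e-13). The CFs' own Enpp1 was at 9.89 and 9.04 CPM against 8.17 and 6.10 CPM (0.41 ± 0.15, adjusted p = 0.0253), a call that was lost without vehicle replicate 2 (0.20, adjusted p = 0.382) or ENPP1+ATP replicate 1 (0.34, adjusted p = 0.132), with total count scaling (0.34), and with the 4 libraries or the 48 h libraries alone (both 0.42). Nt5e, which encodes the AMP-degrading enzyme CD73, was low and fell further (0.275 and 0.785 CPM against 1.60 and 1.98 CPM, -1.78 ± 0.40). The equilibrative transporter Slc29a1 was not called (-0.08 ± 0.049) and Slc29a2 fell (-0.51 ± 0.14).

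Transcripts encoded by mitochondria were higher mainly through ribosomal RNA. Of 15 genes 8 rose and 3 fell. The ribosomal transcripts mt-Rnr2 (18870.0 and 21114 CPM against 1814 and 2072 CPM, 3.36 ± 0.65, adjusted p = 0.00138) and mt-Rnr1 (4873 and 5147 CPM against 727 and 840.2 CPM, 2.68 ± 0.41) rose most, mt-Nd1 (0.82 ± 0.10), mt-Nd2 (0.77 ± 0.10), mt-Cytb (0.70 ± 0.073) and mt-Co1 (0.55 ± 0.063) rose by less, and mt-Nd6, which is read from the other strand, fell (-1.17 ± 0.27). Structured RNAs of the nuclear genome are named after their values were seen. Rn7sk was at 47.6 and 65.0 CPM against 13.6 and 16.8 CPM (1.89 ± 0.54) and Rpph1 at 31.2 and 34.1 CPM against 4.53 and 7.82 CPM (2.41 ± 0.61), and both rose, while Rmrp (1.73, adjusted p = 0.0564) and Gm42418 (0.99, adjusted p = 0.102) were not called, but both were with DESeq2, no filter or a replicate block, and Rmrp also with genes of low level left out and with fewer libraries in the fit. The call of Rpph1 was lost without vehicle replicate 1 (2.06) and that of Rn7sk without either vehicle library (1.74 and 2.04) or without ENPP1+ATP replicate 2 (1.65). How far the recovery of RNA without long tails differed between the libraries was not tested. The nuclear subunits of oxidative phosphorylation did not follow, with 11 of 74 higher, 22 lower, none of them 2-fold and a median of -0.04, from Ndufb6 (0.58 ± 0.094) to Ndufs8 (-0.75 ± 0.076), and Atp5b (-0.09 ± 0.051) not called.

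Of 39 tested genes of glycolysis and the hypoxia response (40 listed) 20 fell and 9 rose, with a median of -0.34. The glucose transporter Slc2a1 (-0.67 ± 0.058), hexokinase Hk2 (-0.93 ± 0.095), Pfkfb4 (-0.88 ± 0.11), Ero1l (-0.78 ± 0.072) and Vegfa (74.1 and 81.1 CPM against 148 and 152 CPM, -0.96 ± 0.055) fell, and Pgk1 fell slightly (-0.34 ± 0.068). The rises were led by Car12, a carbonic anhydrase (23.7 and 21.8 CPM against 3.09 and 3.31 CPM, 2.83 ± 0.14), and Ldhb (1.65 ± 0.23). Of 65 genes of ribosome biogenesis and RNA polymerase I 29 fell and 9 rose, none of them 2-fold, with a median of -0.15, Gar1 (-0.88 ± 0.10) and Utp20 (0.75 ± 0.056) at the ends and the nucleolar protein gene Ncl (0.09 ± 0.047) not called.

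Among genes of the extracellular matrix, more collagens fell than rose. Of 38 tested collagen genes (44 listed) 18 fell (47.4%) and 5 rose, with a median of -0.41. Col3a1 was at 729.9 and 754 CPM against 2078 and 1914 CPM (-1.43 ± 0.068, adjusted p = 1.82e-14), Col1a2 at 483 and 489 CPM against 1032 and 991 CPM (-1.06 ± 0.057) and Col1a1 at 2184 and 2376 CPM against 3833 and 3686 CPM (-0.72 ± 0.052). The fibrillar Col11a1 fell from 450.0 and 410.2 CPM to 118 and 112 CPM (-1.90 ± 0.084), and Col27a1 (1.24 ± 0.10) and Col9a3 (2.38 ± 0.29) rose. The summed CPM of the collagens was 8410.2 and 8431 with ENPP1+ATP and 14135 and 13256 with vehicle.

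Of 26 genes that process and cross-link collagen 16 fell (61.5%) and 5 rose, with a median of -0.45. Lox, lysyl oxidase, was at 206 and 224 CPM against 708 and 713 CPM (-1.73 ± 0.072, adjusted p = 1.88e-14), the collagen chaperone Serpinh1 fell (-0.64 ± 0.065), as did Loxl1 (-0.67 ± 0.12), P4ha3 (-0.72 ± 0.066) and Adamts14 (-0.96 ± 0.088), and P3h2 (0.48 ± 0.083), Plod2 (0.23 ± 0.057) and Loxl4 (0.25 ± 0.059) rose. Of 45 tested matricellular and scar glycoproteins (53 listed) 29 fell (64.4%) and 7 rose, with a median of -0.55. Fn1, fibronectin, was at 3799 and 4057 CPM against 5452 and 5522 CPM (-0.48 ± 0.057), Sparc at 1355 and 1457 CPM against 2253 and 2254 CPM (-0.68 ± 0.047), Tnc at 58.2 and 66.4 CPM against 154 and 156 CPM (-1.32 ± 0.069) and the elastic fibre protein Fbln5 at 63.4 and 68.2 CPM against 239 and 223 CPM (-1.81 ± 0.053). Postn, a marker of activated fibroblasts, fell slightly (-0.34 ± 0.069), and Thbs1 (-0.65 ± 0.053), Wisp2 (-1.93 ± 0.13) and Nov (-1.49 ± 0.10) fell. Vcan, a large proteoglycan (135 and 139 CPM against 47.5 and 43.2 CPM, 1.59 ± 0.091), Spp1, osteopontin (0.86 ± 0.19), and Matn4 (4.65 ± 0.25) rose.

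Of the small leucine-rich proteoglycans 12 of 15 were tested, 6 fell and 4 rose. Aspn, Podnl1, Fmod (-2.20 ± 0.27) and Ogn (-1.71 ± 0.12) fell, Bgn, biglycan, was at 4146 and 4162 CPM against 4460.2 and 4105 CPM with overlapping groups (-0.04 ± 0.08), and decorin Dcn (0.71 ± 0.11), Tsku (1.47 ± 0.075) and Podn (3.15 ± 0.29) rose. Of 25 tested metalloproteinases and their inhibitors (30 listed) 10 rose (40%) and 7 fell (28%). Mmp15, a membrane-bound enzyme, was at 70.8 and 77.0 CPM against 6.50 and 7.41 CPM (3.41 ± 0.21), the inhibitors Timp1 (0.71 ± 0.075), Timp2 (0.59 ± 0.047) and Timp3 (0.27 ± 0.051) rose, and Adamts1 (-1.20 ± 0.067) fell.

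Contractile genes were mostly higher. Of 28 tested genes (30 listed) 19 rose (67.9%) and 3 fell, with a median of 0.28 and small changes in most. Tpm2 (0.66 ± 0.063), Smtn (0.71 ± 0.074) and Des (2.82 ± 0.26) rose, and Flna (-0.25 ± 0.055), Cnn3 (-0.26 ± 0.046) and Myh11 (-2.43 ± 0.72) fell. Myh11, the smooth muscle myosin, had few counts (7 and 1 against 28 and 27), and its call was lost without ENPP1+ATP replicate 2 (-1.73). Tagln was at 1.68 and 1.14 CPM against 0.994 and 0.999 CPM and was not called (0.50 ± 0.37, adjusted p = 0.286). Acta2, the smooth muscle actin by which myofibroblasts are known, was at 85.8 and 88.9 CPM against 86.3 and 87.0 CPM, with overlapping groups (0.01 ± 0.072, adjusted p = 0.911) and a sign that changed with the scaling.

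Signalling genes of the TGF-beta and BMP families moved in both directions. Of 48 tested members (53 listed) 14 were higher (29.2%) and 15 lower (31.2%), against 20.8% and 24.4% of all genes tested. The BMP ligand Bmp4 was at 25.8 and 27.2 CPM against 75.8 and 78.0 CPM (-1.54 ± 0.08), and Id3, Id2 (-1.58 ± 0.12), Id1 (-0.71 ± 0.10) and the inhibitory Smad genes Smad6 (-1.59 ± 0.097) and Smad7 (-0.49 ± 0.068) were among the falls. The BMP antagonist Grem1 (1.18 ± 0.19) and the activin subunits Inhba (37.3 and 35.5 CPM against 12.1 and 12.3 CPM, 1.58 ± 0.094) and Inhbb (1.63 ± 0.08) rose. Tgfb1 (-0.10 ± 0.061) was not called.

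Of 31 tested ligands, receptors, antagonists and targets of Wnt signals (40 listed) 17 fell and 3 rose. The receptors Fzd4 (-1.30 ± 0.068) and Fzd2 (-1.28 ± 0.072) and the antagonists Sfrp2 (210.4 and 228 CPM against 429 and 402 CPM, -0.92 ± 0.054), Sfrp1 (-0.48 ± 0.1) and Frzb (-0.86 ± 0.18) fell, Wnt9a (30.5 and 34.8 CPM against 4.69 and 5.39 CPM, 2.70 ± 0.13) and Wnt5a (1.17 ± 0.13) rose. Of 14 tested Hedgehog pathway genes (17 listed) 7 fell and 2 rose. The coreceptors Gas1 (135 and 99.4 CPM against 450.1 and 339.8 CPM, -1.75 ± 0.27), Boc (-1.04 ± 0.089) and Cdon (-0.68 ± 0.062) and the receptor and target Ptch1 (-0.99 ± 0.085) fell. The rises were of Disp1, which releases the ligand (0.51 ± 0.054), and of the target Gli1 at low level (1.12 and 0.839 CPM against 0.368 and 0.499 CPM, 1.18 ± 0.46, adjusted p = 0.0378). The call of Gli1 was lost without either vehicle library (0.98 and 1.40) or ENPP1+ATP replicate 1 (0.96), and with no filter or fewer libraries in the fit (1.16 to 1.20).

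Genes of growth factors and of guidance cues moved in both directions. Of 22 tested VEGF, angiopoietin and PDGF genes (23 listed) 8 fell (36.4%) and 6 rose (27.3%), against 24.4% and 20.8% of all genes tested. Pdgfra, a receptor that marks fibroblasts, was at 9.04 and 9.28 CPM against 46.7 and 36.3 CPM (-2.18 ± 0.12, adjusted p = 4.71e-13), Pdgfrb fell by less (426 and 367 CPM against 758 and 680.0 CPM, -0.86 ± 0.10), the ligands Vegfc (-0.72 ± 0.085) and Angpt1 (-1.32 ± 0.11) fell, and Pdgfa (0.68 ± 0.069) and Angptl2 (1.77 ± 0.065) rose. Of 20 tested IGF genes (21 listed) 8 fell (40%) and 4 rose (20%). Igf1 (-1.31 ± 0.14) and the binding proteins Igfbp3 (7.73 and 6.20 CPM against 27.2 and 27.9 CPM, -1.98 ± 0.12) and Igfbp4 (-1.13 ± 0.079) were lower. Of 51 tested axon guidance genes (55 listed) 15 rose (29.4%) and 19 fell (37.3%). Robo1 (0.54 ± 0.064) and Plxna1 (1.06 ± 0.06) were higher beside Robo3, and the Robo ligands Slit3 (-2.59 ± 0.22) and Slit2 (-0.45 ± 0.047) were lower. Of 29 YAP and TEAD targets 10 rose (34.5%) and 13 fell (44.8%). Ankrd1 (535 and 553 CPM against 193 and 193 CPM) and Ptpn14 (1.09 ± 0.079) were among the rises. Ctgf (51.1 and 56.0 CPM against 99.1 and 102 CPM, -0.91 ± 0.08) and Cyr61 (-0.29 ± 0.048) were among the falls.

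Interferon-stimulated genes were lower. Of 45 listed genes 28 fell (62.2%) and 3 rose, with a median of -0.43. Isg15, a ubiquitin-like modifier, was at 175 and 207 CPM against 395 and 407 CPM (-1.07 ± 0.14), Mx1 at 3.74 and 7.95 CPM against 30.9 and 28.5 CPM (-2.37 ± 0.46), and Oasl1 (-1.08 ± 0.18), Psmb9 (-1.09 ± 0.20) and Ifit1 (-0.39 ± 0.066) fell. The rises were of Ifi27 (0.99 ± 0.077), B2m (0.59 ± 0.057) and Ifitm2 (0.43 ± 0.10). Of 22 tested chemokines (33 listed) 8 fell (36.4%) and 4 rose (18.2%), against 24.4% and 20.8% of all genes tested. Ccl2, which attracts monocytes, was at 1040.1 and 954 CPM against 660.3 and 587 CPM (0.68 ± 0.11), Cxcl16 rose (0.58 ± 0.07), the interferon-induced Cxcl10 fell (63.8 and 66.5 CPM against 123 and 124 CPM, -0.92 ± 0.14), and Ccl5 fell (-0.57 ± 0.12).

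Of 30 tested cytokines and mediators of inflammation (39 listed) 13 rose and 5 fell. Lif was at 29.2 and 31.0 CPM against 6.61 and 9.09 CPM (1.94 ± 0.14), Lcn2 (1.70 ± 0.15), the macrophage growth factors Csf1 (1229 and 1313 CPM against 784 and 782 CPM, 0.70 ± 0.052) and Il34 (1.04 ± 0.18) and Tnfsf12 (0.94 ± 0.12) rose, Tslp (-1.44 ± 0.31) and complement C3 (-0.40 ± 0.066) fell, and Il33 was not called (-0.29 ± 0.22). Il6 was not called either (-0.35 ± 0.15), but was lower with a replicate block (-0.35, adjusted p = 0.0462), with total count scaling (-0.42) and without ENPP1+ATP replicate 2 (-0.53). Immediate early genes were mostly higher, with 18 of 33 tested members (34 listed) up (54.5%), 5 down and a median of 0.46. Fosl1 was at 91.3 and 99.6 CPM against 12.5 and 15.02 CPM (2.80 ± 0.11, adjusted p = 4.68e-14), Klf4 at 194 and 187 CPM against 45.7 and 53.4 CPM (1.95 ± 0.083), and Fos (1.58 ± 0.15), Jun (0.95 ± 0.072), Etv4 (1.85 ± 0.17) and Dusp6 (0.56 ± 0.092) rose, while Ier2 fell (-0.38 ± 0.087).

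Changes of folding, antioxidant and lysosomal genes were mostly of less than 2-fold. Of 28 tested genes of folding in the endoplasmic reticulum (29 listed) 13 fell and 5 rose, none 2-fold, with the chaperone Hspa5 (-0.23 ± 0.052) and Xbp1 (-0.49 ± 0.071) down and Calr (0.31 ± 0.051) and Hsp90b1 (0.34 ± 0.048) up. Of 35 tested NRF2 and antioxidant genes (38 listed) 15 fell and 11 rose. The factor gene Nfe2l2 (247 and 269 CPM against 149 and 158 CPM, 0.75 ± 0.05), heme oxygenase Hmox1 (0.56 ± 0.062) and Gclc (0.53 ± 0.062) rose, and Nqo1 (-0.58 ± 0.096) and Gclm (-0.56 ± 0.055) fell. Of 40 lysosome and autophagy genes 17 rose and 9 fell, with cathepsin genes Ctsb (1172 and 1233 CPM against 625 and 645 CPM, 0.92 ± 0.045) and Ctsf (1.15 ± 0.12), the calcium channel Mcoln1 (0.69 ± 0.057) and Lamp1 (0.41 ± 0.045) up and Npc2 (-0.43 ± 0.053) and Tfeb (-0.60 ± 0.11) down. Of 19 tested glucocorticoid-responsive genes (20 listed) 8 rose and 6 fell, with a median of 0.21. Pdk4, Lcn2 and the metallothionein Mt1 (0.67 ± 0.094) were among the rises and Tsc22d3 (-1.42 ± 0.13), Klf15 (-1.19 ± 0.081) and Fkbp5 (-0.37 ± 0.049) among the falls. Of 19 clock genes 4 rose (21.1%) and 7 fell (36.8%). Nr1d1 (1.41 ± 0.071) and Arntl (0.61 ± 0.077) were among the rises and Ciart (-0.93 ± 0.10), Per3 (-0.58 ± 0.089) and Nfil3 (-0.43 ± 0.071) among the falls.

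**Figure D5:**
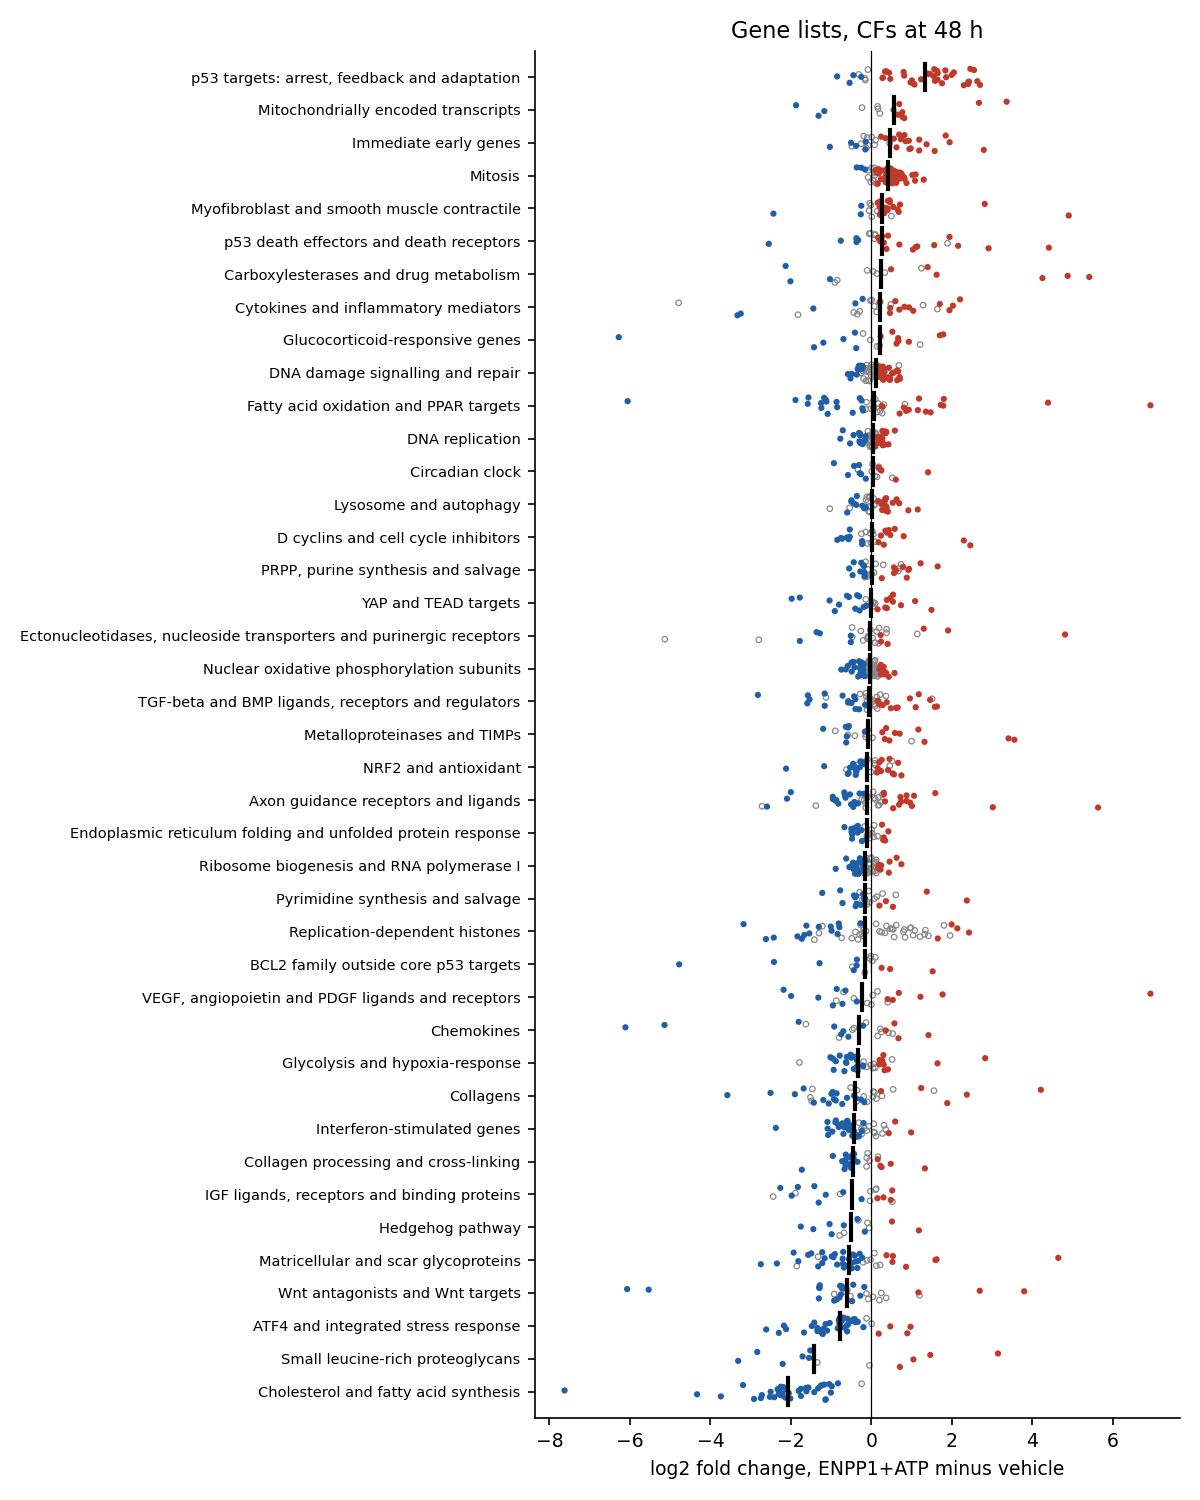
Each row is a gene list and each point a tested member at its log2 fold change, red where it rose, blue where it fell, open where the adjusted p was 0.05 or above, with a black bar at the median of the list. The medians run from -2.08 for cholesterol and fatty acid synthesis to 1.33 for p53 targets of arrest and feedback, and most lists hold members on both sides of 0.

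The labelled cell type was checked by marker genes. Vim, Col1a1, Col1a2 and Pdgfrb were abundant in all 4 libraries, Dcn was at 24.9 and 24.7 CPM against 14.9 and 15.4 CPM, and Thy1 (at most 1 count in a library) and Lum (3 to 13 counts) were near 0. Scaled by the library total alone, as in all sums of markers here, the summed CPM of the 12 fibroblast markers was 5734 and 5903 with ENPP1+ATP and 9662 and 9145 with vehicle, and 6 of 11 tested fell and 2 rose. Of the 14 macrophage markers 4 were tested and 3 rose, with a summed CPM of 71.5 and 80.7 against 18.5 and 17.2. Most of this was Cd68 (2084 and 2170 counts against 141 and 136), and Csf1r rose too (3.21 ± 0.27), while Ptprc, Adgre1 and the C1q genes had at most 6 counts in any library. The summed CPM of 16 cardiomyocyte markers was 377.4 and 371 against 424 and 434, nearly all of it Atp2a2, and the troponin genes Tnnt2 (2.57 and 2.41 CPM against 4.49 and 5.51 CPM) and Tnni3 (-1.06 ± 0.19) fell. The 12 endothelial markers summed to 16.3 and 19.5 CPM against 22.9 and 24.8, and 2 of 7 tested fell. Of the 10 smooth muscle and pericyte markers 8 were tested, 4 rose and 1 fell, with a summed CPM of 481.4 and 492 against 263 and 255. Most of the rise in this sum was Notch3 (15203 and 13341 counts against 7105 and 6038), and Acta2 was not called. Notch3 (349 and 361 CPM against 131 and 126 CPM, 1.47 ± 0.057) and Rgs5 (3.05 ± 0.40) rose, and the marker that fell was Myh11. What part a change in the mix of cells has in the results was not tested.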

How the data were processed

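The authors deposited raw counts per gene as whole numbers, 1 column per CF library, all of which were used here. The submitters' notes name STAR 2.5.3a, Cell Ranger and the builds mm10 and rn6. The counter, its annotation and the use of strand are not given in the sources used here, so a gene and an overlapping or antisense gene cannot be told apart. The 20 CF libraries (10 groups of 2) were fitted together with edgeR 4.0.16 in R 4.3.3 (filterByExpr, TMM scaling, robust quasi-likelihood fit, residual df 10), and the 48 h ENPP1+ATP group was contrasted with the 48 h vehicle group. P-values were Benjamini-Hochberg adjusted over 17879 genes and called below 0.05. Errors of log2 fold changes are SEs derived from the quasi-likelihood F statistic. CPM are the deposited counts scaled by the library total and its TMM factor (0.961 to 1.02 in the 4 libraries), except sums over cell type markers, which use the library total alone. Only the main edgeR fit was tried on simulated counts, with far fewer changed genes than were called here. The lists, motifs and alternative runs were not. The compared samples, lists and motifs were chosen with earlier results of these data known. Named genes are the 15 largest called changes in each direction at 2 or more on the mean log2 CPM scale, with groups that did not overlap, and, in each list, genes marked as central and up to 4 largest called changes in each direction at 1 or more on that scale. Genes outside this rule are said to be so. DESeq2 1.42.0, other scalings, filters and sets of libraries, a replicate block and leaving out each library were tried. Some listed genes enter the counts and are not reported here by name.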

Additional observations from a re-analysis of the deposited data

How the results depend on the processing

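Counts of called genes held within 1.5 times of those reported under DESeq2 (3950 higher, 4015 lower), other scalings (lowest 3070 and 4052, highest 3997 and 5257), other sets of libraries (3540 and 3589 with the 4 libraries alone) and no filter on low counts (3398 and 4527), with an exception for changes of at least 2-fold. With genes at 1 or more on the mean log2 CPM scale only, 11836 genes were tested and 450 were higher and 411 lower by at least 2-fold, against 945 and 991, since weakly expressed genes were left out. Leaving out each library in turn gave 2901 to 3503 higher and 3498 to 4020 lower genes, of which 733 to 996 and 782 to 1141 changed at least 2-fold, and the lone library of a group was then assumed to vary like the other groups. With a replicate block 3753 genes were higher and 4428 lower, 936 and 998 of them by at least 2-fold. The replicate differences of ENPP1+ATP and of vehicle had a correlation of 0.012 across all genes tested, weakly expressed ones included. Whether libraries with the same number share a batch or a culture cannot be told from this value. Scaling by the total count moved the median log2 fold change from -0.03 to -0.10.

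No called gene named in the report had the opposite sign under any alternative run, and 14 of 287 were not called in at least 1 of them. Genes that were not called and changed sign were Acta2 (-0.058 with total count scaling, -0.0054 with no filter, -0.011 without ENPP1+ATP replicate 2, up to 0.041 without replicate 1 of that group), Mcm5 (-0.060 with total count scaling, -0.0067 with no filter, -0.036 without ENPP1+ATP replicate 2, -0.014 without vehicle replicate 2, up to 0.062 without ENPP1+ATP replicate 1), Pcna (-0.039) and E2f1 (-0.019) with total count scaling, Bcl2 (0.0076 without ENPP1+ATP replicate 1, -0.33 without replicate 2) and Bgn (0.019 without vehicle replicate 1). The cause was not tested. Hrk was not called without ENPP1+ATP replicate 2 (-1.50) or with the 4 libraries alone (-2.40), nor Atp2a2 with any library left out (-0.11 to -0.13), DESeq2, RLE scaling, the 4 libraries alone or the 48 h libraries alone (-0.092 to -0.11), nor Bnip3 with RLE scaling (-0.33) or the 48 h libraries alone (-0.35). Among named genes not called, Adk, Atp5b, Atr, Mcm2, Slc29a1 and Tgfb1 were lower with total count scaling (-0.099 for Mcm2 to -0.20 for Atr), Abca1 with that scaling, no filter, the 4 libraries alone or the 48 h libraries alone (-0.22 to -0.31), and Bcl2 without ENPP1+ATP replicate 2, while Ncl was higher with DESeq2 and RLE scaling (both 0.12). The replicate block added calls of Il6 (-0.35), Gm42418 (1.03), Rmrp (1.79) and Trp73 (1.87) among named genes. Trp73 was also called with the 4 libraries alone (1.91) and without ENPP1+ATP replicate 1 (2.28).

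Among lists, leaving out 1 library gave 32 to 34 rises of p53 targets of arrest, 12 to 15 of death effectors, 46 to 48 of mitosis genes, 38 to 39 falls of lipid synthesis genes and 37 to 38 of ATF4 genes. Counts that moved by over 1.5 times included rises of histones (1 to 8), cell cycle inhibitors and their partners (7 to 11), clock genes (2 to 5), chemokines (2 to 4), Hedgehog genes (1 to 2) and collagen processing genes (3 to 5), and falls of immediate early genes (1 to 5), mitosis genes (1 to 3), replication genes (8 to 13), chemokines (5 to 8), cytokines (3 to 5), endothelial markers (1 to 2) and smooth muscle or pericyte markers (0 to 1). With total count scaling, rises numbered 12 of replication genes, 3 of ectonucleotidases and receptors, 7 of oxidative phosphorylation subunits and 2 of clock genes, and falls 14 each of purine and lysosome genes. With genes of low level left out, falls numbered 6 of histones, 2 of ectonucleotidases and receptors, 5 of chemokines, 3 of cytokines, 1 of mitochondrial transcripts and 1 of carboxylesterases and drug enzymes, and rises 1 each of histones and Hedgehog genes and 3 of collagens. DESeq2 and RLE scaling gave 3 falls of immediate early genes, and the 4 libraries alone 5 rises of interferon-stimulated genes.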
